A study of Mus musculus with 6 samples.

Results

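Immature olfactory neuron growth genes were examined in cells sorted as horizontal basal cells (HBCs), the keratin-expressing reserve stem cells at the base of the olfactory epithelium. Cells positive for GFP were sorted from mouse olfactory neuroepithelium, and their mRNA was profiled by bulk RNA sequencing. By their markers, the sorted cells also held RNA of neurons and of sustentacular support cells, so levels are not those of HBCs alone. The set holds 10 genes chosen by symbol: Gap43, Stmn1, Stmn2, Stmn3, Stmn4, Dpysl3, Dpysl5, Tubb3, Gng8 and Dcx. Rows that name a gene of the set were found for 9 of the 10 in a table of 44519 rows, and Tubb3 was not analysed here. Controls were 3 libraries, numbered 1, 2 and 4, from mice with the Krt17-EGFP reporter and labelled as without doxycycline. The TNF group was 3 libraries, numbered 1, 3 and 4, from mice that have, besides this reporter, the transgenes Cyp2g1-rtTA and TRE-TNF and are labelled as having had doxycycline for 6 weeks. Doxycycline then switches on tumor necrosis factor (TNF) in cells that use the Cyp2g1 promoter, chiefly sustentacular support cells. Every library thus came from reporter mice, while doxycycline and both transgenes differ together between groups, and their effects cannot be told apart. The labels give no age and do not say whether a library was 1 animal or a pool, so p-values measure the spread between these libraries. Values below are listed for controls 1, 2 and 4 and for TNF libraries 1, 3 and 4, always in that order.

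Newborn olfactory neurons arise from basal cells throughout life. Before they mature they extend a dendrite to the epithelial surface and an axon to the olfactory bulb, and during this outgrowth they make proteins of the growth cone and of the dynamic microtubule skeleton. GAP43 is a membrane-bound growth cone protein, stathmins bind free tubulin and promote microtubule turnover, and doublecortin stabilises microtubules. The collapsin response mediator proteins (CRMPs, encoded by Crmp1 and the Dpysl genes) carry guidance signals to the cytoskeleton. GNG8 is a G protein gamma subunit of immature olfactory and vomeronasal neurons, and TUBB3 is the neuronal beta tubulin.

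The DNA just upstream of 3 of these genes is shown so that the start regions of genes that fell together can be compared. The windows are the 250 bases before each RefSeq gene start (GRCm38.p6), read 5′ to 3′ on the strand of the gene, and hold no exon annotated by GENCODE. Capitals mark matches to any of 7 motifs searched on both strands.
Dpysl5: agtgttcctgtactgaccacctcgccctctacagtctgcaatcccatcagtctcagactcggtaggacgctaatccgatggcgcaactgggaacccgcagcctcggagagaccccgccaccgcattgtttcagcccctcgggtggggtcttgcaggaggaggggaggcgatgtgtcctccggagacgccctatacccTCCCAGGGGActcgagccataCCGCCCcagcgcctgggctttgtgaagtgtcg
Gng8: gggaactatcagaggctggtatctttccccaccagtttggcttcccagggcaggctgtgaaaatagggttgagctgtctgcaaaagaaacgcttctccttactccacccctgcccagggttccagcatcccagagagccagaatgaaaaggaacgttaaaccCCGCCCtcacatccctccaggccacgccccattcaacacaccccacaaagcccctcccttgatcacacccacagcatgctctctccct
Stmn3: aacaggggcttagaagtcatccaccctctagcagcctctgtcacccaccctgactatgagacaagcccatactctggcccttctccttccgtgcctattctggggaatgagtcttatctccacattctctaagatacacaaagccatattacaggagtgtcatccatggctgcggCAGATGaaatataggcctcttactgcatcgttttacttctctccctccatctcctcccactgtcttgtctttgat
G and C made up 62.8% of the Dpysl5 window (chr5:30711314-30711563, plus strand), 56% of the Gng8 window (chr7:16891536-16891785, plus strand) and 48.8% of the Stmn3 window (chr2:181314501-181314750, minus strand), against a median of 52.4% over all 32851 windows in the RefSeq table. The dinucleotide CpG occurred 17 times in the Dpysl5 window, 4 times in that of Gng8 and 3 times in that of Stmn3, with a median of 6. Motifs were counted in windows that also hold the 50 bases after the start. The EBF factor palindrome, TCCC and GGGA with 2 bases of any kind between them, began 53 bases before the Dpysl5 start, and 0.904% of all windows held one. The E-box CAGATG, which proneural factors can bind, began 75 bases before the Stmn3 start and was in 17.2% of all windows. The GC box GGGCGG was in the Dpysl5 and Gng8 windows and in 35.7% of all windows. Of the other motifs, TAATTA (5.29% of all windows), TATAAA (13.6%) and CCAAT (37.4%) were each in both of the overlapping windows that RefSeq has for Dcx, and CAGCTG (16.3%) was in 0 of the 5 windows of these 4 genes. No motif was shared by all 3 printed windows. Gap43, Stmn1, Stmn2, Stmn4 and Dpysl3 are named only.

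Levels are FPKM, fragments per kilobase of transcript per 1e+06 mapped fragments, so they are per length and genes can be set beside each other. Read depth is unknown. Across genes, the controls correlated at 0.922 to 0.972 with each other, control 4 at 0.931 with control 1 and 0.922 with control 2. TNF libraries 3 and 4 correlated at 0.983, and TNF library 1 reached 0.909 and 0.912 with these. By rule, TNF library 1 is given apart. The sorted control cells held much neuronal RNA. Markers of mature neurons, 17 in number, summed to 3779.9 to 7266 FPKM in controls, beside 765 to 3450.1 FPKM for 10 rows of HBC markers, and control 4 had the highest neuron sum and the lowest HBC sum. In bulk samples, fewer cells of a type and less RNA per cell cannot be told apart.

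In the TNF libraries the growth genes stood at small fractions of their control level, with the exception of Dpysl3. All 9 were called lower (limma on log2(FPKM + 1), adjusted p below 0.05), where 27.2% of 15037 tested rows were called lower, 10.9% higher and 38.0% either way. Every TNF library was below every control for each of the 9 genes, as for 36.2% of tested rows. Of the 9 genes, 4 reached 1 FPKM in only 1 TNF library and Dcx in none, so these passed the filter on low values through the controls alone and had to differ, and the counts are a description. The median log2 change was −6.05 for the 9 genes and −0.22 for all tested rows. Together the 9 genes made up 0.544% to 1.06% of all FPKM in controls and 0.0379% to 0.0528% in TNF libraries.

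**Figure D1:**
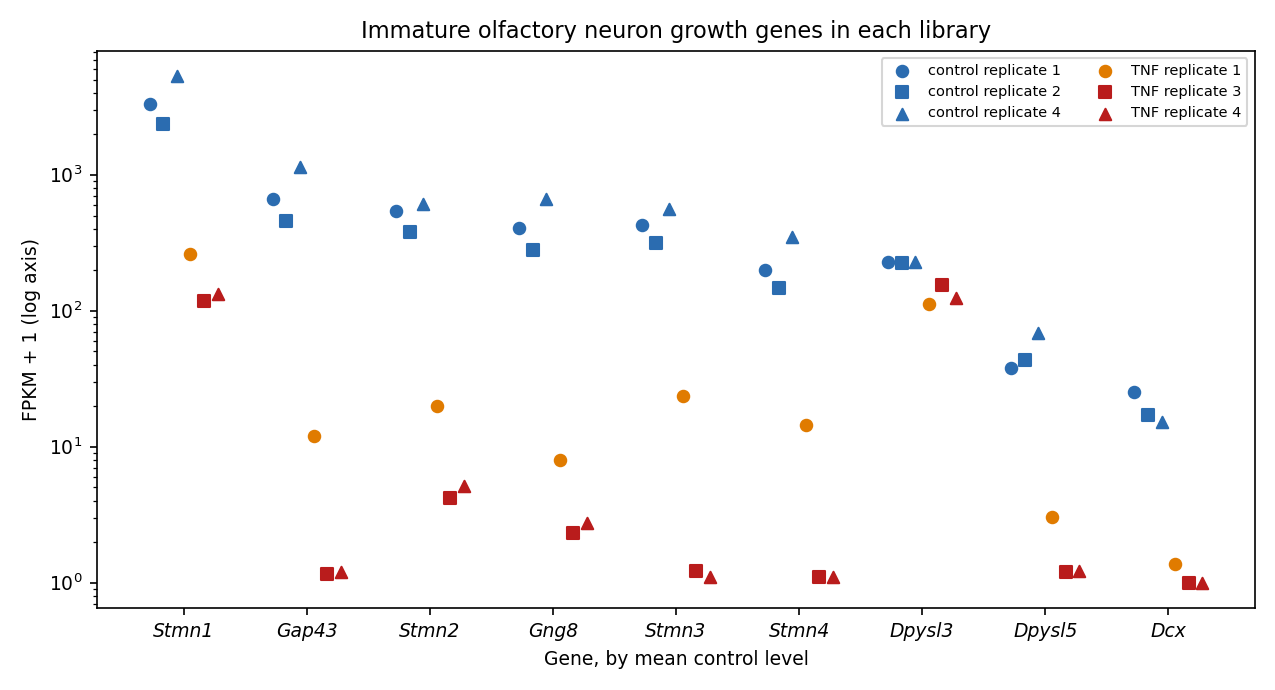
FPKM + 1 on a log axis for the 9 growth genes in each library, ordered by mean control level, with controls in blue, TNF replicate 1 in orange and TNF replicates 3 and 4 in red. For each gene the 3 TNF points lie below the 3 control points, and Gap43 runs from 1132 FPKM in control replicate 4 to 0.151 FPKM in TNF replicate 3.

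Gap43 (chromosome 16, 42248442 to 42340651, mm10, minus strand), the growth cone protein gene, stood at 659.7, 458 and 1132 FPKM in the controls and 10.98, 0.151 and 0.197 FPKM in the TNF libraries. No TNF library came near the control range, and TNF libraries 3 and 4 lay far below TNF library 1. The log2 change of −8.10 ± 0.92 (SE, n = 3 per group, adjusted p = 0.00113) ranked 1 among the decreases of all tested rows.

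Stathmins were the most abundant of these families. Stmn1 (chromosome 4, 134468320 to 134473843, plus strand) encodes cytosolic stathmin, which lacks the membrane anchor of its relatives and is also made by many dividing cells. It stood at 3325, 2336 and 5300.2 FPKM in the controls and 258, 116 and 132 FPKM in the TNF libraries. The groups were wide apart, with a change of −4.44 ± 0.43 (adjusted p = 0.000728), yet each TNF library kept over 100 FPKM. Its exons overlap those of the small gene Gm23634 on the same strand, and its level is uncertain to that extent.

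Stmn2, Stmn3 and Stmn4 encode the neuronal stathmins, which a lipid-modified N terminus holds at membranes. Stmn2 (chromosome 3, 8509360 to 8561606, plus strand), also known as SCG10, stood at 543, 374 and 608 FPKM in the controls and 18.8, 3.16 and 4.14 FPKM in the TNF libraries. Stmn3 (chromosome 2, 181306459 to 181314500, minus strand) stood at 427, 315 and 561 FPKM in the controls and 22.6, 0.213 and 0.0956 FPKM in the TNF libraries. Stmn4 (chromosome 14, 66344296 to 66361680, plus strand) stood at 198, 146 and 344 FPKM in the controls and 13.3, 0.0930 and 0.0894 FPKM in the TNF libraries. The groups did not overlap for any of these, and TNF library 1 was the highest TNF library each time. The log2 change was −6.05 ± 0.58 for Stmn2 (adjusted p = 0.000718), −7.07 ± 1.14 for Stmn3 (adjusted p = 0.00375) and −6.39 ± 1.01 for Stmn4 (adjusted p = 0.00337). TNF library 1 held 5.15 times the mean of TNF libraries 3 and 4 for Stmn2 and 146 times for both Stmn3 and Stmn4, whose levels in those libraries were near or below 0.2 FPKM and have little precision.

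Gng8 (chromosome 7, 16891786 to 16895435, plus strand), the gamma subunit gene of immature olfactory neurons, stood at 400.5, 277 and 659 FPKM in the controls and 6.92, 1.33 and 1.75 FPKM in the TNF libraries. Every TNF library was below 7 FPKM. The change of −6.82 ± 0.53 (adjusted p = 0.000420) ranked 6 among the decreases of all tested rows, with Stmn3 at rank 4, Stmn4 at 9 and Stmn2 at 17.

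Dpysl5 and Dcx had the lowest control levels. Dpysl5 (chromosome 5, 30711564 to 30799375, plus strand), which encodes CRMP5, stood at 36.7, 42.5 and 66.8 FPKM in the controls and 2.04, 0.191 and 0.221 FPKM in the TNF libraries. Dcx (chromosome X, 143855842 to 143933311, minus strand), the doublecortin gene, stood at 24.1, 15.95 and 14.1 FPKM in the controls and at 0.373 FPKM in TNF library 1, and was listed at 0 in TNF libraries 3 and 4. For both genes the highest TNF library was far below the lowest control. The changes were −4.87 ± 0.43 (adjusted p = 0.000562) for Dpysl5 and −4.06 ± 0.27 (adjusted p = 0.000397) for Dcx, the latter a value that the pseudocount limits. A further row names Dpysl5 at the same locus and held 0.104 FPKM in control 1 and 0 in the other 5 libraries.

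Dpysl3 (chromosome 18, 43320979 to 43438286, minus strand), which encodes CRMP4, kept a far larger share of its level. It stood at 226, 224 and 227 FPKM in the controls and 110.2, 153 and 124 FPKM in the TNF libraries. The groups did not overlap, and TNF library 1 was the lowest, whereas it was the highest TNF library for the other 8 genes. The change was −0.82 ± 0.17 (adjusted p = 0.0110), at rank 3890 among decreases. The call was lost without TNF library 4 (adjusted p = 0.0537) and, over all alternatives run, the adjusted p ranged from 0.00800 to 0.144 (limma). Median-of-ratios scaling gave −0.57 and scaling to HBC markers −1.96. Within a library, the log2(FPKM + 1) level of Dpysl3 minus that of Stmn1 was −3.93 ± 0.58 in controls and −0.31 ± 0.83 in TNF libraries (SD, n = 3 each). The difference of 3.62 had p = 0.1 in a two-sided exact permutation test, the smallest p that 3 against 3 allows, and this pair was chosen after its values were seen.

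Markers of stromal and glial cells differed widely among the TNF libraries, and they are set beside Dpysl3 because its order there was unlike that of the other genes. The 8 fibroblast markers summed to 149.9 to 537 FPKM in controls and to 73.4, 1121 and 1599.7 FPKM in the TNF libraries, of which Dcn, a matrix proteoglycan gene, made up 30.7, 512 and 791 FPKM. Of 7 tested, Fbln1 rose, and without TNF library 1 there were 6 of 8 that rose. The 10 ensheathing and Schwann cell markers summed to 96.9 to 493 FPKM in controls and to 25.9, 1284 and 1644 FPKM in the TNF libraries, of which Apod made up 7.62, 1245 and 1601 FPKM. Erbb3, a neuregulin receptor gene, rose, with 1 to 3 of the list rising and 0 to 2 falling when single libraries were left out, and Npy was at 0 in TNF library 1. Sox10, a transcription factor gene of the same list, stood at 2.97, 1.23 and 1.24 FPKM in the TNF libraries. Their part in the Dpysl3 level was not tested.

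Among controls most growth genes went up and down together. Control 4 was the highest library for 8 of the 9 genes and control 2 the lowest for 7. The coefficient of variation over controls ran from 23.7% for Stmn2 to 46.1% for Gap43 in 8 genes and was 0.806% for Dpysl3. Dcx had its highest value in control 1 and its lowest in control 4. The HBC marker sum was 2601, 3450.1 and 765 FPKM in the controls, in the reverse order to Gap43, and 7692, 5218 and 4973 FPKM in the TNF libraries, all above every control. Its part in the spread or fall of the growth genes was not tested. All 9 were called lower after scaling to HBC markers, but this scaling had to lower TNF values and is no test. It moved the median change of all tested rows from −0.22 to −1.24.

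By mean control level Stmn1 led at 3654 ± 1509 FPKM (SD, n = 3), with a range apart from that of Gap43 at 750.1 ± 346 FPKM. Gap43 exceeded Stmn2 (508 ± 120.4 FPKM) in every control, although their ranges overlapped. Gng8 (445 ± 195 FPKM) did not differ beyond the spread from Stmn2 or Stmn3 (434 ± 123 FPKM), while Stmn2 exceeded Stmn3 in every control, with overlapping ranges. Stmn3 exceeded Stmn4 (229 ± 103 FPKM) in every control, while Stmn4 and Dpysl3 (226 ± 1.82 FPKM) did not differ beyond theirs. Dpysl5 (48.7 ± 16.01 FPKM) and Dcx (18.04 ± 5.32 FPKM) came last, with ranges apart from each other and from the rest. In TNF libraries 3 and 4 only Dpysl3 and Stmn1 were above 5 FPKM, and 5 of the 9 genes were below 1 FPKM.

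The level left in TNF library 1 lay lower for growth genes than for markers of mature neurons. Leaving Dpysl3 aside, the growth genes stood there at 1.46% to 7.05% of their control mean, lowest for Gap43 (1.46%) and Gng8 (1.55%) and highest for Stmn4 (5.82%) and Stmn1 (7.05%). Other lists also held genes at such levels. The 16 globose basal cell and precursor genes had a median of 6.87% there and reached down to 0.806%, and 27 other growth cone and axon growth genes had a median of 16.03%. The 17 mature markers stood at 12.3% to 95.3%, so each was above all 8 growth genes. Stoml3, an olfactory cilium protein gene, stood at 794, 681 and 1529.7 FPKM in the controls and 269, 5.19 and 3.75 FPKM in the TNF libraries. S100a5, a calcium-binding protein gene of these neurons, stood at 762, 781 and 1467 FPKM in the controls and 239, 1.65 and 1.63 FPKM in the TNF libraries. Both kept about as much of their control level in TNF library 1 (26.9% and 23.8%) as the list's median of 26.9%, where the 8 growth genes had a median of 3.95%. In TNF libraries 3 and 4 the lists overlapped, with medians of 0.174% and 0.216% for growth genes and 0.758% and 0.598% for mature markers, and 5 of the 17 mature markers above all 8 growth genes in each. TNF library 1 is a single library, so the contrast has no replicate check, and Dpysl3 was set aside after its values were seen.

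**Figure D2:**
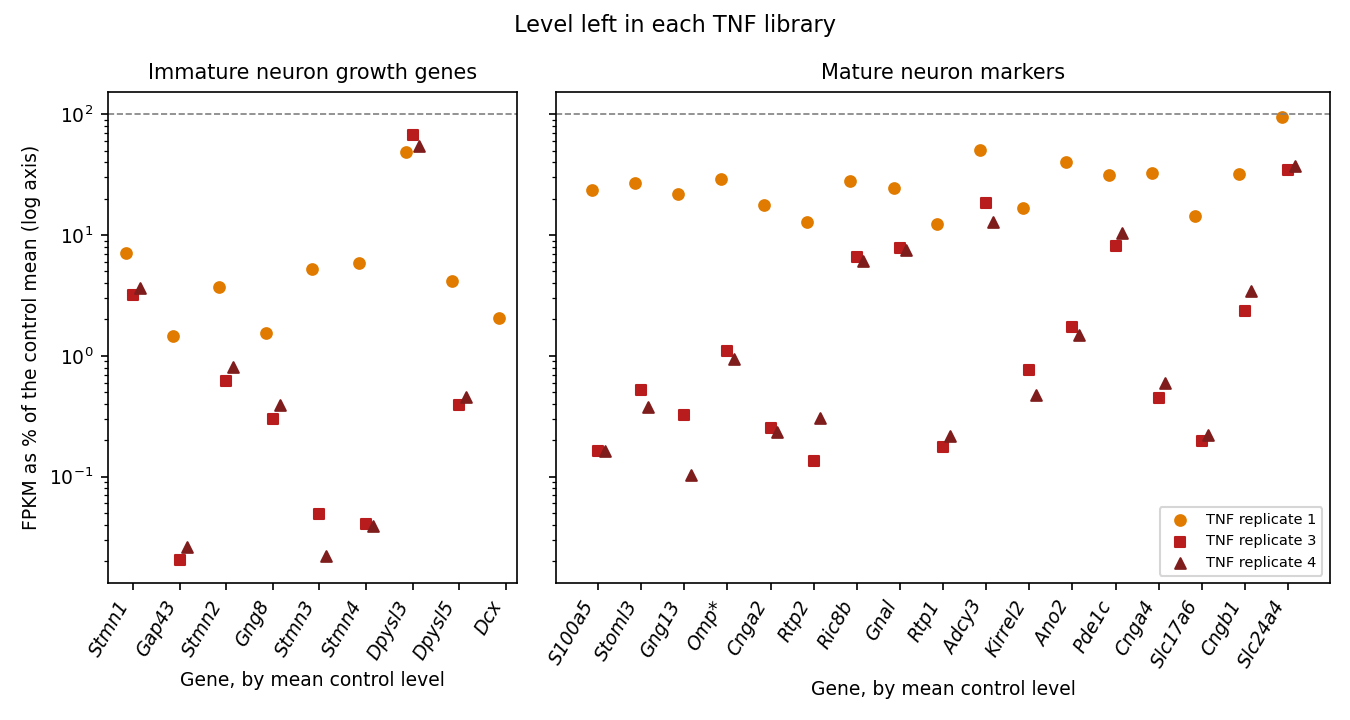
FPKM in each TNF library as a percentage of the control mean, on a log axis, for 9 growth genes and 17 mature neuron markers, each ordered by mean control level. The dashed line is 100%, an asterisk marks a row that merges several genes, and Dcx has no point for TNF replicates 3 and 4, where it is listed at 0. In TNF replicate 1 (orange) the growth genes other than Dpysl3 lie at or below 7.05% and the mature markers at or above 12.3%.

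Genes of the stages before and after outgrowth were lower as well. For the counts here and in the lists below, the share over all tested rows was 27.2% called lower and 10.9% higher. Of 17 mature markers 16 fell, all but Slc24a4, with a median log2 change of −3.92. Single omissions left 7 (control 4), 8 (TNF library 3 or 4) or 9 (control 1 or 2) called, and 17 without TNF library 1. Of 16 globose basal cell and precursor genes tested 13 fell and Sox4 rose, with a median of −2.61. Ebf2, an olfactory neuron transcription factor, stood at 199, 166 and 271 FPKM in the controls and 12.7, 0.463 and 0.609 FPKM in the TNF libraries, a change of −6.04 ± 0.84 (adjusted p = 0.00215). Lhx2, a homeodomain factor of these neurons, fell by 5.92 ± 0.99 on the log2 scale (adjusted p = 0.00421). Sox4 rose by 0.998 ± 0.27 (adjusted p = 0.0250), a call lost without TNF library 3 or 4 and with replicate number as a block. It stood at −0.15 after scaling to HBC markers. That scaling lowers TNF values in general, and after median-of-ratios scaling Sox4 was at 1.24.

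Proliferation genes are set beside Stmn1 because dividing cells also make stathmin. Of 15 tested, 0 passed an adjusted p of 0.05 by limma and 1 had an unadjusted p below 0.05. Their sum was 236 to 346 FPKM in controls and 347, 239 and 267 FPKM in the TNF libraries, groups that overlapped. Hmgb2, a chromatin protein gene of dividing cells, was at −0.32 ± 0.18 on the log2 scale, Pcna, the replication clamp, at −0.03 ± 0.20, Tyms at 0.40 ± 0.24 and Cdk1 at 0.45 ± 0.36. Without control 4 and TNF library 1 together, 3 of them rose, and without control 4 alone 1. Their part in the Stmn1 level that remained was not tested.

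**Figure D3:**
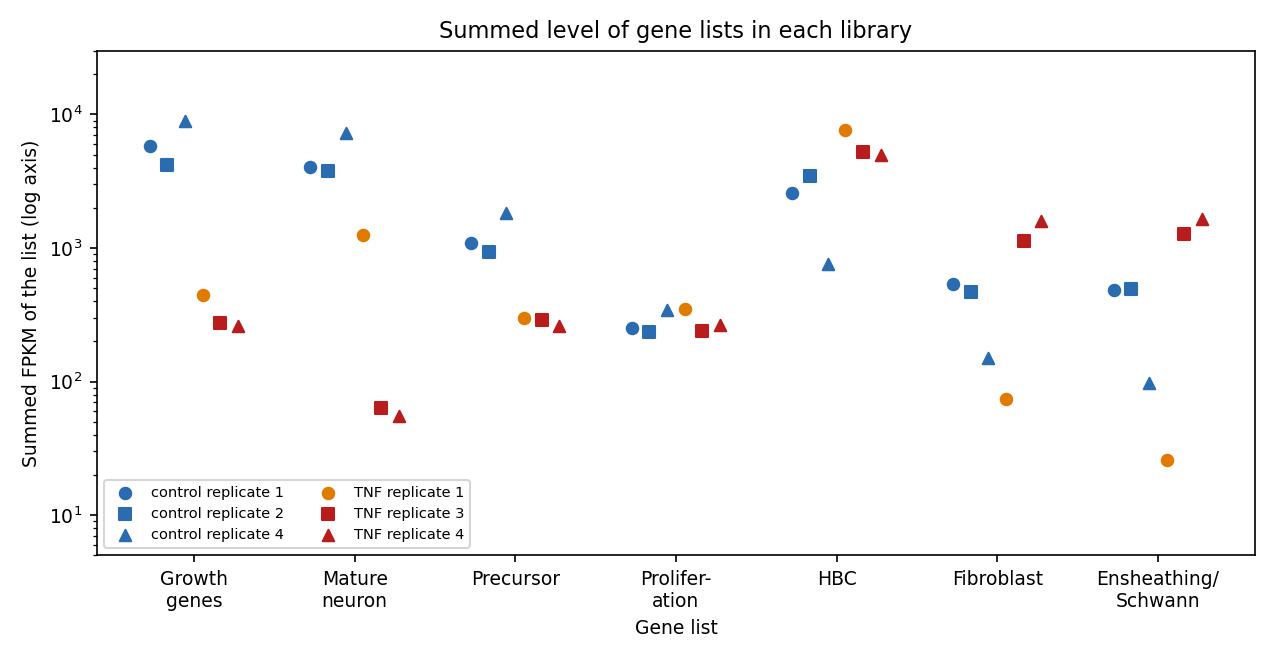
Summed FPKM of 7 gene lists in each library on a log axis, with controls in blue, TNF replicate 1 in orange and TNF replicates 3 and 4 in red. The growth genes sum to 4188 to 8912 FPKM in controls and 262 to 443 FPKM in TNF libraries, while the groups overlap for the proliferation genes.

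Close relatives of the growth genes did not all fall. Of the other CRMP genes, Crmp1 fell by 4.89 ± 0.50 and Dpysl2 by 2.35 ± 0.20 on the log2 scale (adjusted p = 0.000820 and 0.000540), and Dpysl4 was at −0.95 ± 0.42 (adjusted p = 0.121). Crmp1 stood at 40.8, 38.4 and 76.1 FPKM in the controls and 2.49, 0.210 and 0.151 FPKM in the TNF libraries, close in level to Dpysl5. All 4 other doublecortin family genes tested fell. The count was 3 without control 1, control 4, TNF library 3 or TNF library 4, and with replicate number as a block. The 4 changes ran from Dcdc2a at −4.05 ± 1.01 and Dclk3 at −3.47 ± 0.45 to Dclk2 at −1.85 ± 0.29 and Dclk1 at −0.95 ± 0.15. Dclk1, a doublecortin-like kinase gene, stood at 65.2, 61.3 and 54.7 FPKM in the controls and 27.8, 30.9 and 33.3 FPKM in the TNF libraries, so that in the TNF libraries it was far above Dcx.

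Of 11 other tubulin genes tested 5 fell and 2 rose, and 8 fell without control 4 and TNF library 1 together. In single omissions 4 fell, or 6 without TNF library 1, and 1 rose without control 1, control 2 or TNF library 3. Tuba1a, the alpha tubulin of growing neurons, stood at 1741, 1393 and 2583 FPKM in the controls and 188, 147 and 145 FPKM in the TNF libraries, a change of −3.53 ± 0.29 (adjusted p = 0.000467). Tubb5 fell by 2.38 ± 0.32, Tubb2b by 2.33 ± 0.26, Tubb4b by 1.26 ± 0.25 and Tuba4a by 0.75 ± 0.22. Tuba1b, an alpha tubulin of most cells, was at −0.12 ± 0.29 (adjusted p = 0.768), with the sign turned after median-of-ratios scaling (0.12). Tubb6 rose by 1.85 ± 0.16 (adjusted p = 0.000527) and the row that merges Tuba8 with Pex26 by 0.72 ± 0.20 (adjusted p = 0.0275). After scaling to HBC markers, which lowers TNF values in general, these stood at 0.75 and −0.32, and neither was called. After median-of-ratios scaling 2 tubulin genes rose.

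Of 10 other G protein gamma genes tested, Gng13 and Gng3 fell and Gng5 and Gng12 rose. Gng13, the gamma subunit gene of mature olfactory neurons, stood at 867, 706 and 1400.1 FPKM in the controls and 216, 3.19 and 1.03 FPKM in the TNF libraries. In TNF library 1 it kept 21.8% of its control mean where Gng8 kept 1.55%. The Gng13 change was −6.28 ± 1.64 (adjusted p = 0.0234), and with any library other than TNF library 1 left out the count of gamma genes that fell was 1. The count that rose was also 1 without control 1, control 4, TNF library 3 or TNF library 4. Gng3 was listed at 0 in all 3 TNF libraries, against 3.46, 2.93 and 5.89 FPKM in the controls. Gng5 and Gng12, which many cell types make, rose by 0.95 ± 0.26 and 1.65 ± 0.25 (adjusted p = 0.0272 and 0.00288), but stood at −0.20 and 0.53 after scaling to HBC markers, with neither called. That scaling lowers TNF values in general, and 2 gamma genes rose after median-of-ratios scaling. The row that merges Gng10 with its neighbours was at −0.16 ± 0.18 (adjusted p = 0.513).

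**Figure D4:**
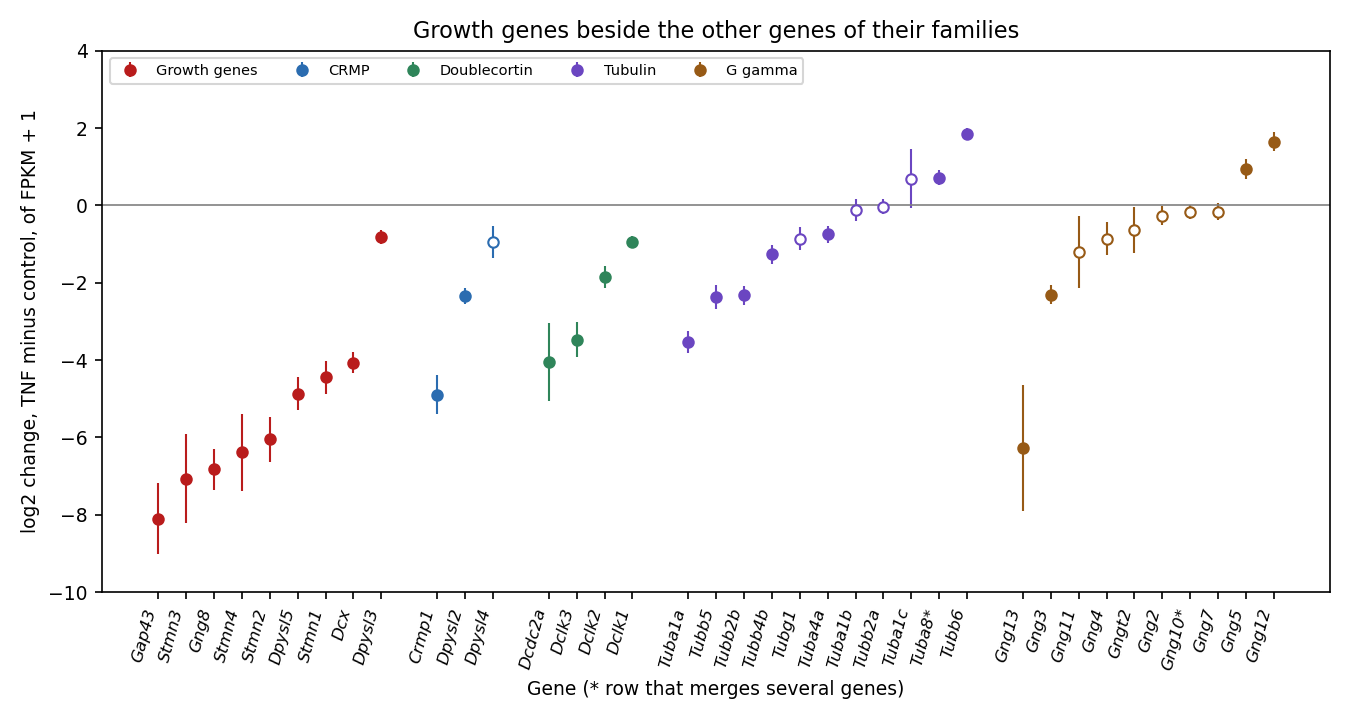
log2 change (TNF minus control) of FPKM + 1 for the 9 growth genes and the other tested genes of their families, with bars of 1 SE (n = 3 per group). Filled points passed an adjusted p of 0.05 and open points did not. Growth genes run from −8.10 (Gap43) to −0.82 (Dpysl3). The tubulin and gamma subunit genes that rose (Tubb6, Tuba8, Gng5, Gng12) were not called after scaling to HBC markers, which lowers TNF values in general. After median-of-ratios scaling 2 tubulin and 2 gamma subunit genes rose.

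Other genes of the growth cone and of axon growth were mostly lower. Of 27 tested 23 fell and 3 rose, with a median of −2.56. Basp1, a growth cone protein akin to GAP43 in its membrane association, stood at 687, 568 and 583 FPKM in the controls and 110.1, 39.7 and 39.8 FPKM in the TNF libraries, a change of −3.43 ± 0.40 (adjusted p = 0.00128). Rtn1 and Nsg1, neuronal membrane protein genes, changed by −4.89 ± 0.73 and −4.19 ± 0.74 (adjusted p = 0.00275 and 0.00517). Marcksl1 fell by 0.68 ± 0.19 (adjusted p = 0.0326), a call lost after median-of-ratios scaling. Those that rose, named after their values were seen, were Chl1, Ablim1 and Shtn1. Chl1, a neural adhesion gene, rose by 2.33 ± 0.26 from 0.858, 0.851 and 1.02 FPKM to 5.88, 10.5 and 10.1 FPKM, and was also called after scaling to HBC markers (1.49). Ablim1 (0.04) and Shtn1 (−0.53) were not, though that scaling lowers TNF values in general. The number of growth cone genes that rose was 3 after median-of-ratios scaling and 1 without control 2, control 4, TNF library 3 or TNF library 4.

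Of 10 kinase and transcription factor genes known to act on stathmins or on neuronal genes, 5 fell and 1 rose. Mapk10, the neuronal JNK gene, changed by −4.79 ± 0.57 (adjusted p = 0.00135). Klf7, a factor of axon growth, changed by −1.07 ± 0.28 (adjusted p = 0.0237), a call lost after median-of-ratios scaling, and the kinase gene Cdk5 by −0.93 ± 0.22 (adjusted p = 0.0165). Pak3 and Mapk8 fell too, by 1.78 ± 0.17 and 1.25 ± 0.30, while Mapk9 was at −0.51 ± 0.19 (adjusted p = 0.0714). Rest, the repressor of neuronal genes, named after its values were seen, stood at 5.33, 7.29 and 3.01 FPKM in the controls and 11.8, 12.9 and 12.8 FPKM in the TNF libraries, a change of 1.18 ± 0.29 (adjusted p = 0.0195). It was at 0.18 after scaling to HBC markers, which lowers TNF values in general. The Rest call was lost there, with replicate number as a block, and without control 1, TNF library 3 or TNF library 4. In these last 3 cases 2 or 3 of the 10 fell.

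The rows closest in profile to the mean of the growth genes were Olig2, Mcoln3, Prph, Elavl4 and Gm38165, out of 10566 other rows with a mean of at least 5 FPKM. Closeness was the root mean square difference over the 6 libraries of log2(FPKM + 1) less the control mean, and ran from 0.12 for Olig2 to 0.26 for Gm38165. Olig2, a basic helix-loop-helix factor gene, stood at 68.7, 56.6 and 91.5 FPKM in the controls and 2.498, 0 and 0.0512 FPKM in the TNF libraries. Mcoln3, a cation channel gene, stood at 92.8, 64.2 and 118 FPKM in the controls and 3.35, 0.107 and 0.173 FPKM in the TNF libraries. Prph, the peripheral neuron filament gene, stood at 68.5, 47.3 and 73.7 FPKM in the controls and 3.53, 0.123 and 0.152 FPKM in the TNF libraries. In each, TNF library 1 lay between the controls and the other TNF libraries, as for most growth genes. Elavl4, a neuronal RNA-binding protein gene, stood at 105, 86.1 and 139 FPKM in the controls and 4.83, 0.253 and 0.290 FPKM in the TNF libraries. The difference between groups makes up most of each profile, so closeness mainly matches its size.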

How the data were processed

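RNA of GFP-positive cells was amplified with a SMARTer kit and made into Nextera libraries, per the labels' protocols. The submitters' processing notes name bcl2fastq, FastQC 0.10.1, TopHat2 2.1.1, Cuffdiff 2.2.1 and mm10. Settings, strand handling and annotation were not given in the sources used here. Values came as FPKM in a single table by the authors, whose deposited title speaks of raw counts. Since 99.98% of its values above 0 were fractional (tolerance 1e-06), no count model was applied. It had 0 columns of other samples, and 779 rows merged several genes.

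Rows that reached 1 FPKM in 3 or more libraries were tested with limma 3.58.1 (R 4.3.3, intensity trend) on log2(FPKM + 1), the 1 being the pseudocount, with group as the only term and Benjamini-Hochberg adjustment over 15037 rows. With a library left out, the filter asked for as many libraries as the smaller group holds. This scale understates the change of low genes, and libraries were not rescaled. A symbol was taken at its row of highest mean FPKM, and 3 symbols were matched through RefSeq synonyms. Gene bounds are the deposited ones, 1-based, with strand and exon overlaps from GENCODE M21, from which the bounds of Dpysl3 and Gng8 differ by a few bases.

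The growth genes and all lists were chosen with earlier results of these data known. By rule the text names the growth genes, the 4 most abundant genes of each family or pathway list, the 2 most abundant of each cell type list and the 5 closest profiles, and marks genes named after their values were seen where the count alone would not tell. Genes named to spell out a count, and Sox10, were also added after their values were seen. A few genes of the lists are not reported here. In simulated data for this comparison, with 200 of 15037 genes changed in each of 5 draws, the fit recovered 33.1%, 71.9% and 93.6% of genes changed by 1, 2 and 4 on the log2 scale, and 6.11% of its calls were false. Changed genes were drawn only from rows with a mean log2(FPKM + 1) above 4, and noise was independent between genes. Far fewer genes changed than were called in the data, so the rates do not cover lower genes or shared shifts. Alternatives were a pseudocount of 0.1, no filter or one of 5 FPKM, single omissions of libraries, a replicate block, an adjusted p below 0.01 and scalings by median of ratios, upper quartile and HBC markers. Leaving out control 4 and TNF library 1 together was added after seeing the data.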

Additional observations from a re-analysis of the deposited data

How the results depend on the processing

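Each growth gene kept its decrease in the 14 alternatives run on it. The call held in all 14 for 8 genes, with adjusted p at most 0.0210 (limma), and changes ranged from −9.54 to −7.53 for Gap43 and from −5.59 to −4.13 for Stmn1. Of these, Gap43, Stmn3, Stmn4, Dpysl5 and Dcx passed the filter through the controls alone, so their calls remain a description. Dpysl3 ranged from −1.96 to −0.57 and lost its call under the block and without TNF library 4, and at an adjusted p below 0.01, so that 8 to 9 genes were called. Over all rows 5718 changed, 1635 higher and 4083 lower. Single omissions gave 3794 to 7636 changed, 920 to 2460 higher and 2874 to 5176 lower, with the lowest counts without TNF library 3 and the highest without TNF library 1. An adjusted p below 0.01 gave 3291, 787 and 2504. Leaving out control 4 and TNF library 1 gave 9192 changed and 3101 higher, and a filter of 5 FPKM, which tests fewer rows, 2655 lower. The split of higher and lower was 2353 and 3120 after median-of-ratios scaling, 2188 and 3185 after upper-quartile scaling and 276 and 7144 after scaling to HBC markers, which moved the median change of all rows from −0.22 to 0.01, −0.01 and −1.24. For the other shifts the cause was not tested. Depth is unknown, which limits levels below about 1 FPKM.

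Replicate numbers 1 and 4 occur in both groups, but same-numbered libraries did not deviate together (correlations of −0.06 and −0.09), so they were not taken as pairs. With the replicate block 2990 rows changed, 744 higher and 2246 lower, 8 growth genes were called, and Dpysl3 was at −0.95 (adjusted p = 0.144, limma).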

Other observations

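Cells other than neurons were followed through their markers in the same fit, in which 27.2% of all rows were lower and 10.9% higher. Of 10 HBC marker rows, Itgb4, Itga6 and Col17a1, genes of the basal adhesion complex, rose, with 1 to 5 rising in single omissions (fewest without TNF library 3, most without control 2), 6 after median-of-ratios scaling, 5 under the replicate block and 0 after scaling to these markers themselves. The row that merges Krt14 and Krt17 stood at 1768, 2265 and 402 FPKM in the controls and 5651, 3793 and 3645 FPKM in the TNF libraries (adjusted p = 0.0741, limma, and 0.0489 after median-of-ratios scaling, which also called Krt15 and Trp63) and Krt5 at 344, 329 and 151 FPKM in the controls and 1011, 402 and 425 FPKM in the TNF libraries (adjusted p = 0.110, limma). Of 8 sustentacular markers Cyp2g1, Cyp1a2, Ermn and Sult1c1 fell (2 to 6 in single omissions), while Cbr2 and Ugt2a1, the most abundant, were at 0.28 ± 0.61 and −0.11 ± 0.43 on the log2 scale. Pou2f3 and Coch fell among 6 microvillar and ionocyte markers (0 to 2 in single omissions), and the row that merges Ascl3 was at 0.31 ± 0.18. Of 5 Bowman gland markers, among them Aqp5 at 0.74 ± 0.36 and Sox9 at 0.74 ± 0.38, 0 passed by limma and 0 had an unadjusted p below 0.05. The same held for the 6 of 8 endothelial markers that passed the filter. The sum of all 8 was 34.7 to 45.9 FPKM in controls and 3.899, 100.2 and 155 FPKM in the TNF libraries, and without TNF library 1 all 8 were tested and 7 rose. Pecam1 and the row that merges Egfl7 were at 1.29 ± 1.14 and 0.08 ± 0.93.

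Among 12 myeloid markers Cd14 rose by 3.03 ± 0.33 and 7 fell, 1 without TNF library 3 and 3 without TNF library 4. Lyz2, a lysozyme gene, was at 0.08 ± 0.56. Cd3e, Cd3g, Cd2 and the row that merges Trac fell among 5 T cell markers (1 to 4 in single omissions, fewest without TNF library 3), and Lck was at −0.64 ± 0.40. The B cell markers Cd79a, Cd79b and Ms4a1 fell. Jchain, the immunoglobulin joining chain gene, stood at 0.218, 0.0769 and 105 FPKM in the controls and 67.4, 48.7 and 34.3 FPKM in the TNF libraries, with control 4 alone among controls above 1 FPKM. Of 10 housekeeping genes B2m, a class I antigen gene, rose by 3.25 ± 0.40, Ppia was at −0.10 ± 0.50, and no library was at 0 for any of them.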
